A study of Mus musculus with 24 samples.

Results

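Retinal endothelial cells that lack the receptor Frizzled-4 (Fz4-/-) were compared with wild type cells while both grew together with control HEK293 cells, a human embryonic kidney line that does not make Norrin here. The arrays were chosen by their labels: 3 of Fz4-/- cells and 3 of wild type cells, 6 of the 24 arrays of the study. The other 18 hold the same 2 genotypes alone on a gelatin coat, alone on Matrigel, which is a basement membrane extract, and with HEK293 cells that express Norrin, with 3 arrays in each of 8 groups. The Matrigel cells were first kept for 24 hours in 1% serum and then spent 6 hours on the gel, so they differ from the gelatin cells in serum as well as in support. For every group the donors were adult mice, of both sexes (mixed gender in the labels), with a C57Bl6/129 mixed background. All donors carried the Immorto transgene, a temperature-sensitive SV40 large T antigen under a gamma interferon responsive H2Kb promoter. Lines were expanded in gamma interferon on gelatin, and RNA was made at 37 °C without it. Co-culture RNA was, per the labels, a mixture of mouse endothelial and human RNA in about equal parts, so the mouse probe sets were also exposed to human transcripts. The labels do not say whether the 3 replicates of a genotype are separate cultures or separate lines, so the p-values reflect array-to-array spread, which may be technical.

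Frizzled-4 is a receptor on retinal endothelial cells that binds the secreted protein Norrin, with the co-receptor Lrp5 and the helper Tspan12, and signals through beta-catenin. Loss of this pathway in mice leaves the deep retinal vessels unformed and the blood-retina barrier leaky, with loss of the junction protein claudin-5 and gain of Plvap, a protein of fenestrae. With control HEK293 cells no Norrin is added, so the comparison asks how cells of the 2 genotypes differ in co-culture before the ligand is supplied.

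Values are log2 array intensities after the 6 arrays were given the same distribution. Differences are Fz4-/- minus wild type on that scale, with the standard error (SE) of limma and n = 3 arrays per genotype. A gene counts as higher or lower where limma's Benjamini-Hochberg adjusted p is below 0.05 over 18193 genes. The number of arrays limits the precision, since 3 against 3 cannot give a two-sided exact permutation p below 0.1 for a single gene.

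The arrays of the 2 genotypes form separate sets. Before normalization the array medians were 3.28 to 3.31 in Fz4-/- and 3.47 to 3.50 in wild type. The mean of 24 control probe sets for dap, lys, phe and thr, bacterial transcripts used as labelling controls, was 3.96 to 4.02 in Fz4-/- and 6.06, 7.53 and 7.45 in wild type. The mean of 18 hybridization control probe sets was closer, at 10.51 to 10.75 and 10.42 to 10.50. Single ones differed in both directions. BioB-3 was at 9.1, 8.9 and 9.2 in Fz4-/- against 7.9, 8.1 and 8.1 in wild type. BioC-3 was at 9.5, 9.4 and 9.6 against 9.7, 9.8 and 9.9. Genotype and array set therefore cannot be told apart in any difference below. Wild type replicate 1 stood apart: its actin signal was 1.62 higher at the 3' than at the 5' end, against 0.55 to 0.63 on the other 5 arrays. The 3' end of 18S RNA read 12.3 on it against 8.06 to 9.77. At the 5' end of 18S RNA all wild type arrays were higher, at 12.17, 10.03 and 11.60 against 8.50, 7.89 and 8.90 in Fz4-/-. List counts are therefore also given without wild type replicate 1 where that moves them by more than 1 gene.

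Fzd4, the deleted gene, was read first. Its most intense probe set was at 4.10, 4.36 and 4.12 in Fz4-/- against 5.58, 6.08 and 6.13 in wild type. Another was at 3.05, 2.91 and 2.80 against 6.16, 6.16 and 6.16. Every Fz4-/- array lay below every wild type array on both, with differences of -1.73 ± 0.15 and -3.24 ± 0.10 (adjusted p = 3.57e-05 and 5.1e-08 in limma over all probe sets). The third probe set was near the floor in both genotypes and differed by -0.06. Ndp, which encodes mouse Norrin, did not pass the test (-0.08 ± 0.10, adjusted p = 0.544).

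Of 18193 genes, 7443 passed the threshold. In Fz4-/- cells 3277 genes (18% of those tested) were higher and 4166 (22.9%) were lower. With a minimum of 2-fold, 504 (2.77%) were higher and 550 (3.02%) were lower. The arrays of the 2 genotypes did not overlap in 9592 genes (52.7%), whatever the test said. The median difference over all genes was -0.03 and the median size 0.25, so the typical gene differed little. Without normalization the median gene shifted by -0.20, and the share of higher genes among those called dropped from 44.0% to 23%. Small differences therefore depend on the normalization. The list counts below use the threshold with no minimum size, so they include such differences. Each is to be read beside the shares over all genes, 18% higher and 22.9% lower.

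The largest rise was in Slfn4, a member of the schlafen family that interferons induce in macrophages. The Fz4-/- arrays gave 9.08, 9.05 and 9.07 and the wild type arrays 2.36, 2.48 and 2.41 (difference 6.65 ± 0.09, adjusted p = 1.03e-10 in limma). The wild type level lay below 2.53, the limit used here for probe sets near background, so the 101-fold ratio is measured against background. Slfn9 and Slfn8 were lower, by -0.76 ± 0.10 and -0.57 ± 0.11, and Slfn2 did not pass (-0.10 ± 0.09). Slfn3 did not pass either (0.38 ± 0.17), and a second Slfn9 probe set differed by 0.21. No other measured member of the family passed as higher, as far as the probes keep the family apart.

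Lyve1, the hyaluronan receptor of lymphatic vessels and some macrophages, was at 8.69, 8.73 and 8.51 against 2.69, 2.82 and 2.60 (difference 5.94 ± 0.10). A second Lyve1 probe set differed by 4.97. Odc1, which makes polyamines, was at 10.67, 10.66 and 10.68 against 6.54, 6.50 and 6.51 (4.16 ± 0.09). Ccnd1, the cyclin D1 gene, was at 10.65, 10.76 and 10.62 against 7.14, 6.84 and 6.88 (3.72 ± 0.11), and 2 further Ccnd1 probe sets differed by 3.12 and 3.59. In each of these genes the Fz4-/- arrays formed a narrow band far above wild type. Casp1, the inflammatory caspase that cleaves interleukin-1 beta, differed by 3.74 ± 0.10. The other large rises were Pam, which amidates peptides (4.52 ± 0.18), Itih5 of the inter-alpha-trypsin inhibitor family (4.24 ± 0.10), the fatty acid binding proteins Fabp5 (3.42 ± 0.13) and Fabp4 (3.41 ± 0.09), Mmd (3.39 ± 0.10), the polysialyltransferase St8sia4 (3.31 ± 0.09) and the guanylate binding protein gene Gbp2b (3.18 ± 0.14). A second Fabp4 probe set differed by -0.33, and a second St8sia4 probe set by 0.28, so these 2 genes rest on a single probe set.

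The largest fall was in Ubd, which encodes the ubiquitin-like modifier FAT10 and is induced by gamma interferon and tumour necrosis factor. Ubd gave 2.49, 2.50 and 2.54 on Fz4-/- arrays against 9.07, 9.30 and 9.21 on wild type arrays (difference -6.68 ± 0.10, adjusted p = 1.1e-10 in limma), 103-fold against a Fz4-/- level at background. Aldh1a1, which makes retinoic acid from retinal, was at 2.41, 2.21 and 2.25 against 8.12, 8.33 and 8.38 (-5.99 ± 0.11). Mpeg1, the macrophage pore-forming protein perforin-2, was at 3.37, 3.45 and 3.42 against 8.94, 9.16 and 9.23 (-5.70 ± 0.10). All 3 were far lower on every Fz4-/- array than on any wild type array; Ubd and Aldh1a1 lay near background there, and Mpeg1 above it. Cryab, a small heat shock protein, was at 3.29, 3.12 and 3.20 against 9.64, 8.41 and 8.69 (-5.71 ± 0.25), and another Cryab probe set differed by -4.78. The Cryab probe set with no cross-hybridization mark differed by only -0.16, but its mean level lay near background, below 2.53. Serping1, the complement C1 inhibitor, was at 4.72, 4.84 and 4.85 against 9.24, 9.62 and 9.70 (-4.72 ± 0.13). The remaining large falls were the chemokine Cxcl11 (-4.58 ± 0.15), the matrix proteoglycan decorin, Dcn (-4.34 ± 0.12, with a second probe set at -0.24), ceruloplasmin, Cp (-4.14 ± 0.13, with 6 further probe sets at -3.93 to -0.38), Plac8 (-4.10 ± 0.12), the stretch-responsive Ankrd1 (-4.05 ± 0.23), the pro-apoptotic Pmaip1 (-4.0 ± 0.11) and the antiviral enzyme Oas3 (-3.96 ± 0.12).

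**Figure D1:**
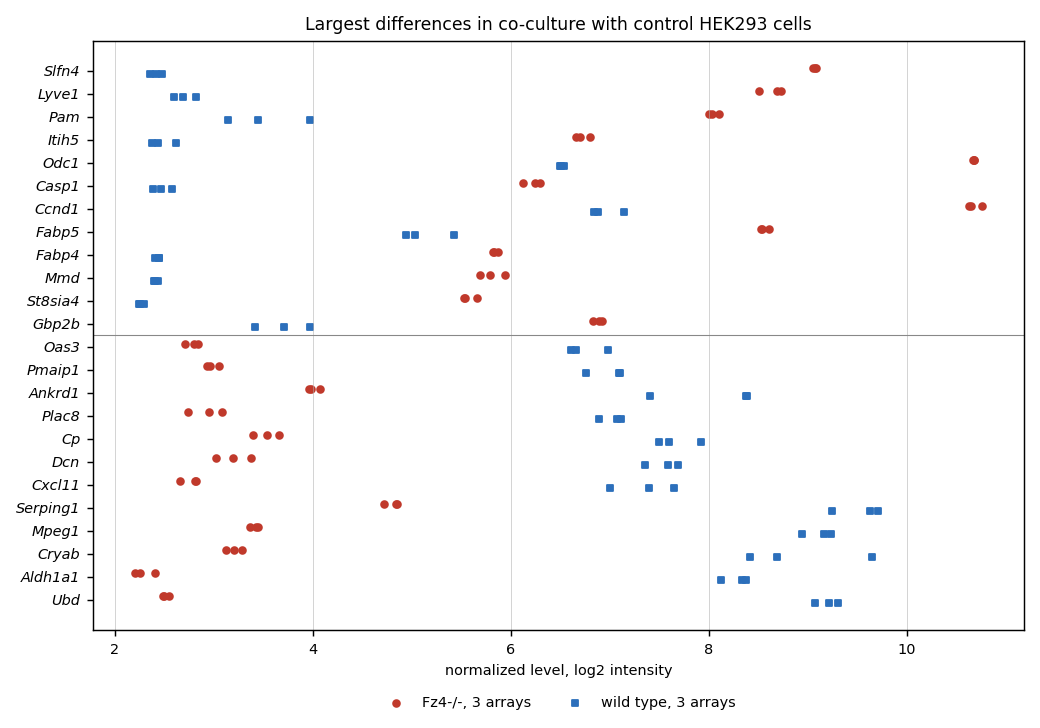
Normalized log2 intensity (x axis) of the 12 genes with the largest rise (above the line) and the 12 with the largest fall (below it) in Fz4-/- cells with control HEK293 cells, with 1 point per array: circles are the 3 Fz4-/- arrays and squares the 3 wild type arrays. The 2 genotypes do not overlap in any of the 24 genes, and the low group of Slfn4 and Ubd sits near 2.4.

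The Norrin co-cultures hold the same genotypes on 6 other arrays, which fall into the same array sets, and give the values that follow. Ubd was at 2.44 in Fz4-/- and 9.50 in wild type there, Slfn4 at 9.37 and 2.30, and Lyve1 at 8.97 and 2.34. Aldh1a1 was at 2.13 and 9.53. Of the 24 genes, Dcn had the smallest difference there, at -1.70.

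Genes that mark endothelial cells were mostly higher in Fz4-/- cells in this co-culture. Of 26 pan-endothelial genes, 18 were higher, 2 were lower and 6 did not pass, and their median difference was 0.87 against -0.03 for all genes. All 8 measured genes of fenestrae and caveolae were higher, with a median of 0.99. Without wild type replicate 1 the counts were 17 higher and 3 lower, and 8 and 0. On gelatin 6 of the 26 pan-endothelial genes were higher and 1 was lower, with a median of 0.10. Cdh5, Pecam1 and Kdr did not pass there. A joint fit with gelatin, described below, gave a higher genotype difference in co-culture for 15 of the 26 and a lower one for 2. In RNA from a mixed culture, fewer endothelial cells and less of the message per cell cannot be told apart. To gauge human RNA, 47 probe sets were taken that were low in all cultures without HEK293 cells and high in all co-cultures. The choice used the compared arrays and no human sequence, so mouse genes that rise in co-culture may be among them. These probe sets averaged 7.02 to 7.08 in Fz4-/- and 7.17 to 7.27 in wild type. Their part in the endothelial result was not tested.

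Pecam1, the adhesion protein CD31, was at 8.12, 8.11 and 8.09 in Fz4-/- against 6.48, 7.32 and 7.22 in wild type (1.10 ± 0.19, adjusted p = 0.00122 in limma). Wild type replicate 1 was the lowest array, and the other 2 wild type arrays also lay below all Fz4-/- arrays. Cdh5, vascular endothelial cadherin, was at 6.74, 6.60 and 6.71 against 5.75, 5.76 and 5.75 (0.93 ± 0.09, with a second probe set at 0.29). Kdr, the main VEGF receptor, was at 7.84, 7.84 and 7.70 against 6.49, 6.35 and 6.30 (1.41 ± 0.10). In the Norrin co-cultures Cdh5 did not pass (0.286), while Pecam1 (0.561) and Kdr (0.993) were higher. The largest rise of the list was in Tek, the Tie2 receptor for angiopoietins, at 6.69, 6.50 and 6.61 against 3.40, 3.65 and 3.50 (3.08 ± 0.10). Robo4 (1.98 ± 0.12), Rasip1 (1.64 ± 0.10) and Emcn (1.59 ± 0.19) followed. The 2 exceptions were Ecscr (-0.98 ± 0.12) and the transcription factor Tal1 (-0.60 ± 0.14). Vwf, the von Willebrand factor gene and a defining endothelial marker, lay near background in both genotypes, at 2.40 and 2.41 (below 2.53); it was the only one of the 26 so placed.

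Among the caveolar genes, Cav1, the coat protein of caveolae, was at 10.53, 10.47 and 10.41 against 8.67, 9.19 and 9.13 (1.47 ± 0.14). Ehd2 (1.39 ± 0.21), Ehd4 (1.15 ± 0.11) and Cav2 (1.13 ± 0.14) followed, although a second Cav2 probe set differed by -0.28. In the Norrin co-cultures Cav1 (0.003) and Ehd2 (0.124) did not pass, while Ehd4 (0.807) and Cav2 (0.425) were higher. Plvap, the diaphragm protein of fenestrae, was at 11.04, 10.92 and 10.96 against 9.84, 10.30 and 10.35 (0.81 ± 0.14, adjusted p = 0.00104 in limma). On gelatin, where the cells grow alone, Plvap differed by 2.04 and was the only 1 of the 8 genes to pass. The test of the difference between the 2 cultures gave an adjusted p of 0.0515 for Plvap.

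**Figure D2:**
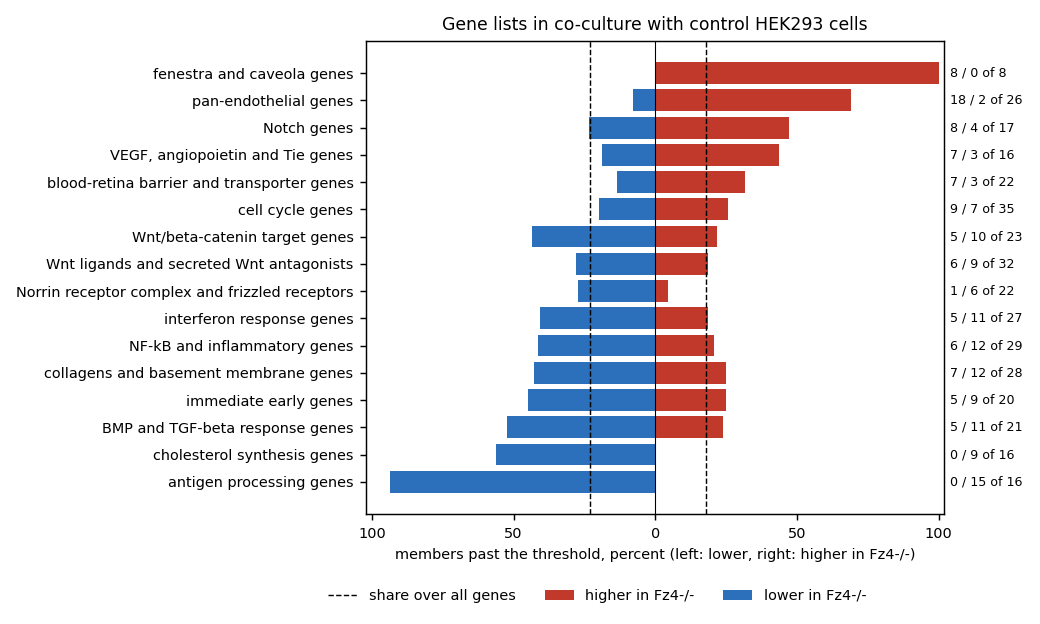
Share of measured list members past the threshold (x axis, percent) in 16 gene lists, with members lower in Fz4-/- to the left and higher to the right. Numbers at the right margin give higher / lower of measured, and dashed lines mark the shares over all genes, 18% higher and 22.9% lower; all 8 caveolar genes lie right of 0 and 15 of 16 antigen processing genes lie left.

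Antigen processing genes were lower as a group. Of 16 measured members, none was higher, 15 were lower and 1 (Tap2) did not pass, with a median of -0.96. The counts were the same without wild type replicate 1. The group holds some of the MHC class II genes, which present peptides to CD4+ T cells. It also holds class I machinery that cuts, transports and loads peptides. Gamma interferon switches on both, class II through the coactivator Ciita.

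H2-Aa, a class II alpha chain, was at 5.51, 5.56 and 5.51 in Fz4-/- against 8.62, 8.76 and 8.76 in wild type (-3.19 ± 0.09, adjusted p = 1.16e-08 in limma). Cd74, the invariant chain that guides class II proteins, was at 7.08, 7.13 and 7.05 against 9.94, 10.18 and 10.15 (-3.0 ± 0.10). H2-Eb1, a class II beta chain, was at 7.09, 7.08 and 7.02 against 8.93, 8.95 and 8.99 (-1.89 ± 0.09). In all 3 genes the arrays of a genotype lay close together and far from those of the other genotype. H2-DMa, which helps to load class II peptides, was lower by -2.54 ± 0.11 (-0.26 on a second probe set), H2-Ab1 by -1.54 ± 0.11 and Ciita by -0.93 ± 0.11. H2-DMb2 was lower by -1.17 ± 0.10, but by -0.18 on its probe set with no cross-hybridization mark, which did not pass. H2-Eb2 (0.055 ± 0.13), H2-Oa (-0.28 ± 0.16) and H2-Ob (0.09 ± 0.09), class II genes that the list does not hold, did not pass. H2-Ob lay near background in both genotypes. The H2-Aa, Cd74, H2-Ab1 and H2-DMb2 probe sets read here carry a cross-hybridization mark, so they may also read other transcripts.

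On gelatin the class II genes did not pass the test: H2-Aa differed by 1.71, H2-Eb1 by 1.28, Cd74 by -0.13 and Ciita by -0.17. The 2 cultures were compared in a fit over 12 arrays normalized together, in which 6080 genes (33.4% of those tested) had a genotype difference that itself differed. That fit gave -4.62 for H2-Aa (adjusted p = 4.78e-05), -3.05 for H2-Eb1 and -2.69 for Cd74 (adjusted p = 0.00741). Its values need not equal the plain gap between the 2 differences, because the normalization is shared. Of the 16 antigen processing genes, 6 had a lower genotype difference with HEK293 cells than on gelatin and 1 had a higher one.

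The promoters of 2 of these genes are shown because class II genes share a set of short control elements. RefSeq windows of assembly GRCm38.p6 were searched over the 250 bases before the start for the Y box, CTGATTGG, on both strands. Of 4 class II genes with a window, 2 held it, and 3.83% of all 32851 windows did. The match is in capitals, and lies 43 bases before the start of H2-Aa (chr17:34287827-34287914, minus strand) and 54 before that of H2-Eb1 (chr17:34305765-34305852, plus strand). Both are printed along the gene's strand.
H2-Aa: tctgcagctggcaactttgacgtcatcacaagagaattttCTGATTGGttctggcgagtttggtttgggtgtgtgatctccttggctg
H2-Eb1: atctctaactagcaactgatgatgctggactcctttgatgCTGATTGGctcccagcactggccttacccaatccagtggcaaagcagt

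Of 27 interferon response genes measured, 5 were higher, 11 were lower and 11 did not pass, with a median of -0.23. Over all genes 18% were higher and 22.9% lower, so the share of higher members was near that of all genes. Without wild type replicate 1 the counts were 5 and 13. With a minimum of 2-fold, 7 were lower and none was higher, beside 3.02% and 2.77% of all genes. On gelatin 24 of the same 27 were lower in Fz4-/-, none was higher, and the median was -2.31. Over all genes 11.8% passed on gelatin in either direction. In the joint fit 19 of the 27 had a genotype difference that was higher with HEK293 cells than on gelatin, and none a lower one.

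Cxcl10, a chemokine for T cells, was at 7.03, 6.93 and 7.16 in Fz4-/- against 9.62, 10.31 and 10.36 in wild type (-3.06 ± 0.18). Gbp2, a guanylate binding protein that attacks intracellular microbes, was at 8.42, 8.38 and 8.44 against 11.25, 11.51 and 11.44 (-2.99 ± 0.10). Both were also lower on gelatin and on Matrigel, by -4.11 and -3.90 for Cxcl10 and by -1.96 and -2.02 for Gbp2. Oas2 was lower by -1.84 ± 0.10. In contrast, Rsad2, the antiviral protein viperin, was at 9.11, 9.12 and 9.01 against 8.36, 8.37 and 8.30 (0.73 ± 0.09), whereas on gelatin it was lower by -2.64. The joint fit gave 3.42 for Rsad2 (adjusted p = 0.00105), 3.52 for Ifit1, 3.28 for the RNA sensor Dhx58 and 1.93 for the kinase Eif2ak2. Those 3 were higher in co-culture by 0.50 ± 0.10, 0.61 ± 0.11 and 0.80 ± 0.20.

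The guanylate binding protein family went in 2 directions. Gbp6 (-3.21 ± 0.11), Gbp2, Gbp8 (-2.15 ± 0.13), Gbp3 (-1.59 ± 0.09) and Gbp7 (-0.80 ± 0.10) were lower, while Gbp2b was higher at 6.89, 6.83 and 6.92 against 3.97, 3.71 and 3.42. Gbp2b was higher on gelatin and Matrigel too, by 3.06 and 3.56. Gbp2 and Gbp2b are close copies, so reads of one may include the other. Xaf1, an interferon-induced partner of apoptosis inhibitors, was lower by -3.55 ± 0.16 on its most intense probe set and higher by 6.42 on another, so no direction is given for that gene.

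The core of the interferon response element, GAAANNGAA, was searched on both strands of the same windows in 10 genes (Gbp2, Gbp3, Gbp2b, Cxcl10, Oas3, Ubd, Xaf1, Tap1, Psmb9 and Slfn4). It was found in the first 5 of these 10 and in 7.13% of all windows. The stretches are shown because Gbp2, Gbp3, Cxcl10 and Oas3 were lower and Gbp2b was higher, and all 5 hold the core. Matches are in capitals, on either strand, overlapping in Gbp3 and Oas3, and Gbp3 is shown for the one of its windows that holds the core. Positions are chr3:142620565-142620653 and chr3:142559966-142560043 (both plus strand) for Gbp2 and Gbp3. Cxcl10 and Oas3 are at chr5:92349054-92349139 and chr5:120777680-120777768 (both minus), and Gbp2b is at chr3:142594671-142594759 (plus). A match is letters in a window and says nothing of binding in these cells.
Gbp2: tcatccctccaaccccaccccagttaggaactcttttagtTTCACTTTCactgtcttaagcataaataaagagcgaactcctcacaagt
Gbp3: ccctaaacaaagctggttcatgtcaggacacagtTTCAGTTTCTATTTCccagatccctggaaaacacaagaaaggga
Cxcl10: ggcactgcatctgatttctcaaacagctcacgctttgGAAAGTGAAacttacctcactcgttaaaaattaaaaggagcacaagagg
Oas3: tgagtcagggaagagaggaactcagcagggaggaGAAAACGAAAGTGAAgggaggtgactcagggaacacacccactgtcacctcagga
Gbp2b: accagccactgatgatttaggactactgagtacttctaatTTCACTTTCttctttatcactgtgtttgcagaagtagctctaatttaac

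**Figure D3:**
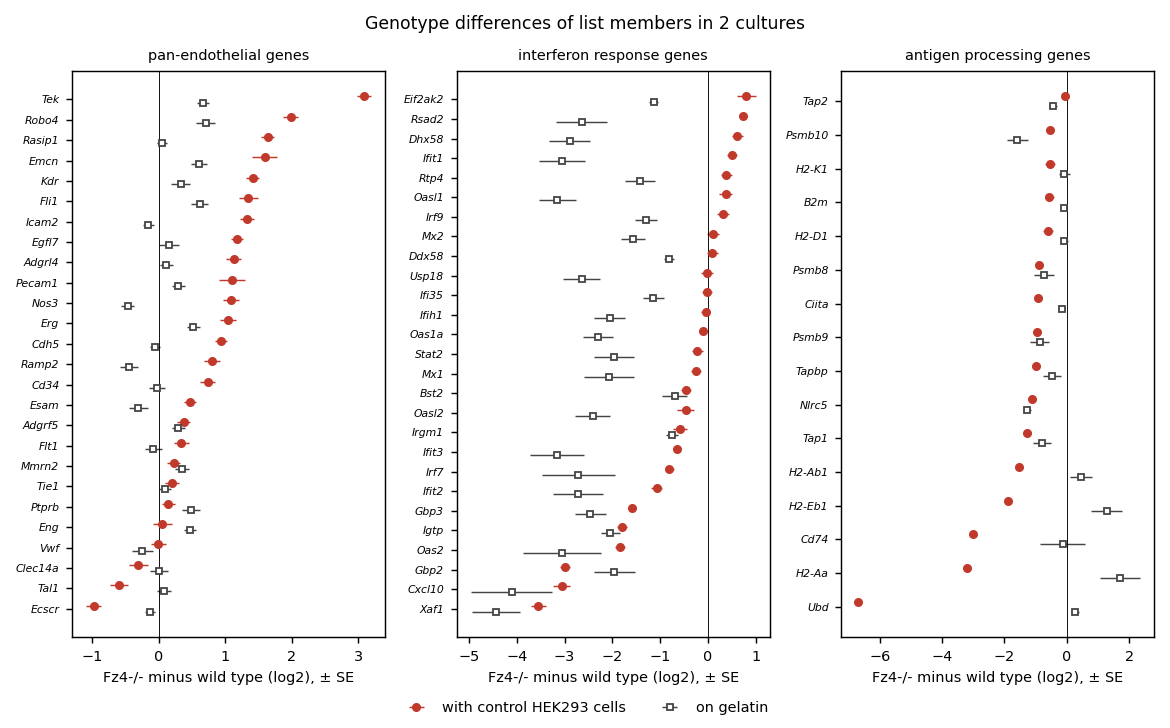
Genotype difference (x axis, log2, Fz4-/- minus wild type, bars are the SE of limma) of every measured member of 3 lists, with filled circles for the co-culture with control HEK293 cells and open squares for gelatin; each culture has 3 arrays per genotype. Circles of most pan-endothelial genes lie right of 0 and those of 15 of 16 antigen processing genes left, and 24 interferon response genes passed as lower on gelatin against 11 in co-culture.

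The co-culture and the cultures without HEK293 cells use different arrays, so their genotype differences can be set side by side. On gelatin 2140 genes (11.8%) passed and on Matrigel 2149 (11.8%), read on the same probe sets. The gelatin count was 1199 or 1185 without Fz4-/- replicate 2 or 3 and 988 or 1016 without wild type replicate 2 or 3. The Matrigel count was 1318, 1321, 1006 and 1062 without the same replicates of that culture. In the same direction on gelatin and in co-culture were 869 genes, which is 11.7% of the co-culture calls and 40.6% of the gelatin calls. Opposite directions were found in 357, of which 156 were higher in co-culture and 201 lower. Of the 1054 genes called with at least 2-fold in co-culture, 282 (26.8%) were called the same way on gelatin, 64 (6.07%) the opposite way and 708 (67.2%) not at all. Over all genes Pearson's r between the differences was 0.23 for gelatin and 0.22 for Matrigel, as a description over genes, which are not independent.

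The same direction in all 3 cultures was found for 268 genes higher and 370 lower in Fz4-/- cells. Slfn4 differed by 4.14 on gelatin and 4.39 on Matrigel, Casp1 by 4.37 and 4.91, and Lyve1 by 2.51 and 2.68. Odc1 (0.92 and 1.02), Fabp5 (1.20 and 1.14), Fabp4 (3.24 and 2.94), Mmd (1.58 and 1.76) and Gbp2b complete the 8 largest rises. The largest falls were Ankrd1 (-3.45 and -4.33), Pmaip1 (-1.73 and -1.70), the transcription factor Osr1 (-3.86 ± 0.14 in co-culture, -3.17 and -2.32 elsewhere), the cell cycle inhibitor Cdkn1c (-3.11 ± 0.10, -1.23 and -1.19), Cxcl10, Aplp1 (-3.03 ± 0.11, -1.48 and -1.34, with a second probe set at -0.33 in co-culture) and Gbp2, beside the discordant Xaf1. By contrast Ubd, Aldh1a1, Mpeg1 and Plac8 differed by only 0.27, -0.27, -0.45 and -0.20 on gelatin, and none of them passed there. On gelatin these genes read low in both genotypes, at 3.69 and 3.43 for Ubd, 2.76 and 3.03 for Aldh1a1, 3.91 and 4.36 for Mpeg1 and 3.0 and 3.20 for Plac8 (Fz4-/- first). The opposite held for Pam and St8sia4, which were low with HEK293 cells in wild type alone and read high in both genotypes on gelatin, at 10.27 and 9.83 and at 8.94 and 8.70. Ccnd1 and Itih5, also among the 12 largest rises, differed by 0.21 and 0.79 on gelatin and did not pass there. The joint fit gave -7.70 for Ubd (adjusted p = 5.16e-13) and -6.75 for Aldh1a1 (adjusted p = 8.67e-11).

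The 8 genes with the largest reversals went both ways. Cryab, Serping1, Cp, Fos, the stress protease Htra1 (-2.06 ± 0.10) and the pro-apoptotic Pawr (-2.63 ± 0.15) were lower in Fz4-/- in co-culture and higher on gelatin, where they differed by 2.62, 3.08, 0.90, 1.53, 2.19 and 0.81. Mmp3, stromelysin-1, was at 6.33, 6.11 and 6.24 against 3.40, 3.49 and 4.13 in co-culture (2.55 ± 0.17) and was lower by -1.76 on gelatin. Atg9b, of the autophagy pathway, was higher by 2.27 ± 0.10 and lower by -1.46 on gelatin, although a second probe set of it differed by 0.02 in co-culture.

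The genes that set the 2 genotypes apart most strongly without HEK293 cells were followed in co-culture. Of the 20 with the largest fall on gelatin that were also lower on Matrigel, 16 were lower in co-culture and none was higher. Of the 20 with the largest rise, 18 were higher, Selp was lower (-0.94 ± 0.13) and Serpinb6b did not pass. Over all genes 18% were higher and 22.9% lower. Selp was higher in the Norrin co-cultures, by 1.035. Of the 20 falls, the 4 that did not pass in co-culture were Ifi202b, Ctsk, Ddx60 and Isg20. Without wild type replicate 1 Ctsk was higher by 0.34 (adjusted p = 0.0205 in limma). Hoxd8, a homeobox gene, was at 4.37 and 10.70 in Fz4-/- and wild type on gelatin, but at 3.25, 3.27 and 3.34 against 4.81, 4.52 and 4.70 in co-culture (-1.40 ± 0.10). Ifi202b, an interferon-inducible DNA sensor, was at 3.42 and 10.32 on gelatin and near the floor in both genotypes in co-culture, at 2.59, 2.79 and 2.68 against 2.72, 2.56 and 2.58 (0.06 ± 0.10, not past the threshold). Thy1 differed by 4.33 on gelatin and by 1.07 ± 0.13 here. The wild type co-cultures therefore did not read Ifi202b, a transcript that wild type cells alone gave strongly; levels of the 2 cultures were normalized separately, and how much of such a gap the human RNA accounts for was not tested.

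**Figure D4:**
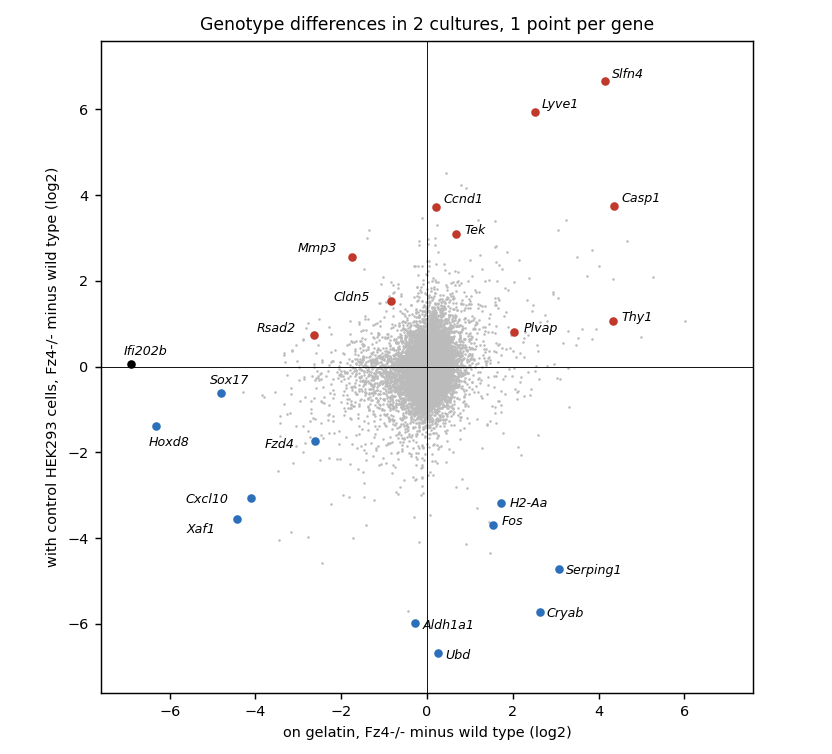
Genotype difference (log2, Fz4-/- minus wild type) with control HEK293 cells (y axis) against that on gelatin (x axis), with 1 grey point for each of 18193 genes; named genes are red where higher, blue where lower and black where not past the threshold in co-culture. Slfn4 and Lyve1 lie at the upper right, and Ubd and Aldh1a1 are low on the y axis with almost no difference on gelatin. Ifi202b and Hoxd8 lie far left, Ifi202b near 0 on the y axis and Hoxd8 at -1.40.

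Among 22 frizzled receptors and co-receptors, 1 was higher, 6 were lower and 15 did not pass, beside 18% and 22.9% of all genes. Without wild type replicate 1 the counts were 1 and 9. Reck, an inhibitor of matrix proteases that also serves as a Wnt7 co-receptor, was at 3.03, 2.89 and 3.23 in Fz4-/- against 5.62, 6.15 and 6.12 in wild type (-2.91 ± 0.15, adjusted p = 6.54e-07 in limma). It was the largest fall of the list, larger than that of the selected Fzd4 probe set, and was also lower on gelatin (-0.73). Fzd8 (-1.18 ± 0.15) and Fzd6 (-1.10 ± 0.11, with 2 further probe sets at -0.61 and -0.15) were lower, and Fzd1 was higher (0.55 ± 0.09). Of 32 Wnt ligands and secreted antagonists, 6 were higher (9 without wild type replicate 1) and 9 lower. Sfrp1, which binds Wnts outside the cell, was at 6.43, 6.35 and 6.31 against 8.93, 8.89 and 8.88 (-2.54 ± 0.09), and 4 further probe sets differed by -3.46 to -1.77. Sfrp2 was lower by -1.84 ± 0.23, Wnt11 and Wnt9a each by -1.02, and Wnt5b was higher by 0.98 ± 0.11.

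Of 23 targets of beta-catenin, 5 were higher and 10 lower, beside 18% and 22.9% of all genes, with a median of -0.10. Axin2, the feedback gene that most Wnt-responsive cells induce, was at 3.06, 2.98 and 3.01 against 3.86, 3.71 and 3.55 (-0.69 ± 0.10, adjusted p = 0.000589 in limma), and a second probe set differed by -0.15. Ccn4 was lower by -0.49 ± 0.10, Bambi by -1.22 ± 0.12, and Lef1 did not pass (0.14 ± 0.10). The 2 largest changes of the list were rises, in Ccnd1 and in Myc, which was at 6.12, 6.20 and 6.20 against 3.70, 4.79 and 4.13 (1.97 ± 0.22). Many signals other than Wnt control both of these growth genes. On gelatin Ccnd1 differed by only 0.21 and did not pass, while Myc was higher by 0.596. The joint fit gave 3.11 for Ccnd1 (adjusted p = 2.39e-06) and 1.64 for Myc (adjusted p = 0.0021).

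The SoxF factors, which act downstream of Frizzled-4 in the retina, gave small values. Sox17 was at 3.70, 3.49 and 3.79 in Fz4-/- against 3.83, 4.44 and 4.54 in wild type (-0.61 ± 0.17, adjusted p = 0.0184 in limma), and the call was lost without Fz4-/- replicate 2 (-0.52, adjusted p = 0.077) or wild type replicate 2 (-0.53, adjusted p = 0.0627) or 3 (-0.48, adjusted p = 0.0706). On gelatin Sox17 was at 3.92 and 8.72, a difference of -4.81. The test of the difference between cultures gave 3.30 for Sox17 (adjusted p = 3.27e-06). Sox18 was higher by 0.60 ± 0.20 (adjusted p = 0.0345), and no longer passed without Fz4-/- replicate 1 (0.58, adjusted p = 0.0941), 2 (0.58, adjusted p = 0.0951) or 3 (0.64, adjusted p = 0.0724). Without wild type replicate 1, the array that stood apart, the Sox18 difference was 0.32 (adjusted p = 0.0168). Sox7 did not pass (-0.15 ± 0.13), and was lower by -0.30 without wild type replicate 1 (adjusted p = 0.0202).

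Of 22 genes of the blood-retina barrier, 7 were higher, 3 lower and 12 did not pass, beside 18% and 22.9% of all genes. Cldn5, claudin-5 of endothelial tight junctions, was at 5.74, 5.59 and 5.61 in Fz4-/- against 4.08, 3.97 and 4.30 in wild type (1.52 ± 0.11, adjusted p = 4.84e-06 in limma). On gelatin it differed by -0.84 and did not pass, and the joint fit gave 2.57 for Cldn5 (adjusted p = 0.00129). The efflux pump gene Abcb1a (1.66 ± 0.11) and the lipid transporter gene Mfsd2a (1.18 ± 0.11) were also higher. These rises stand beside those of the pan-endothelial genes, whose median was 0.87.

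Among 16 VEGF and angiopoietin genes, 7 were higher and 3 lower, beside 18% and 22.9% of all genes. Angpt2, the angiopoietin of remodelling vessels, was at 9.36, 9.34 and 9.30 against 6.98, 7.12 and 7.17 (2.25 ± 0.10). Nrp2, a co-receptor of veins and lymphatics, was higher by 2.06 ± 0.10, and Flt4, the lymphatic VEGF receptor, by 1.4 ± 0.09. Nrp1, the arterial co-receptor, was lower by -1.81 ± 0.23 (3 further probe sets at -1.43 to 0.22), and Vegfa by -1.75 ± 0.13. The neuropilins kept these directions on gelatin, at 2.37 for Nrp2 and -1.44 for Nrp1. Of 17 Notch genes, 8 were higher and 4 lower. Notch4, the endothelial Notch receptor, was at 6.17, 6.00 and 5.93 against 3.08, 2.86 and 3.19 (2.99 ± 0.12), while a second probe set of it differed by 0.21. Lfng (1.38 ± 0.13, with a second probe set at 0.12) and Nrarp (1.27 ± 0.10) were higher, and Hes5 (-1.25 ± 0.10), Hes1 (-0.80 ± 0.13) and Notch3 (-0.75 ± 0.13) were lower. For Notch3, the probe set with no cross-hybridization mark differed by -0.03 and did not pass.

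Of 29 NF-kB and inflammatory genes, 6 were higher and 12 lower, beside 18% and 22.9% of all genes. Lcn2, the iron-scavenging lipocalin, was at 5.61, 4.99 and 5.28 against 8.49, 9.20 and 9.08 (-3.63 ± 0.20), Cxcl2 was lower by -1.85 ± 0.14, the adhesion molecule Vcam1 by -1.79 ± 0.20 and Cxcl1 by -1.32 ± 0.12. The monocyte chemokine Ccl2 was higher (1.60 ± 0.14). In the Norrin co-cultures Lcn2 (0.20), Cxcl2 (0.08) and Cxcl1 (-0.16) did not pass, while Vcam1 (-1.79) and Ccl2 (2.99) kept their directions. Lcn2 was low there in both genotypes, at 3.26 in Fz4-/- and 3.06 in wild type. On gelatin Lcn2 differed by 1.43 and did not pass, and the joint fit gave -5.03 for it. Of 20 immediate early genes, 5 were higher and 9 lower. Fos was at 5.16, 4.97 and 5.03 against 8.28, 9.01 and 8.91 (-3.68 ± 0.17). Egr1 (-2.29 ± 0.13), Atf3 (-1.87 ± 0.12) and Jund (-1.57 ± 0.11, with a second probe set at 0.61) were lower, whereas the ERK feedback phosphatase Dusp6 (2.67 ± 0.11) and Fosl1 (1.53 ± 0.12) were higher with Myc. In the joint fit 11 of the 20 had a lower and 4 a higher genotype difference than on gelatin.

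Of 21 BMP and TGF-beta genes, 5 were higher and 11 lower, beside 18% and 22.9% of all genes, with a median of -0.37. Tgfb2 (-2.64 ± 0.15, with 3 further probe sets at -3.42 to -0.58), Bmp6 (-2.47 ± 0.15), the activin antagonist Fst (-1.86 ± 0.12) and Id4 (-1.67 ± 0.10) were lower, and Bmp4 was higher (1.08 ± 0.19). Of 28 collagen and basement membrane genes, 7 were higher and 12 lower. Col1a2 was at 4.50, 4.55 and 4.39 against 7.81, 7.99 and 8.02 (-3.46 ± 0.10), the collagen crosslinking enzyme Lox was lower by -2.60 ± 0.14, and fibronectin, Fn1, was higher by 1.03 ± 0.11. Col1a2 and Lox did not differ on gelatin past the threshold (0.06 and -0.11). Of 16 cholesterol synthesis genes 9 were lower (1 of them by 2-fold) and none higher, with a median of -0.46; Cyp51 (-1.07 ± 0.12) and Msmo1 (-0.85 ± 0.12, but -0.06 and not past on the probe set with no cross-hybridization mark) led. Of 35 cell cycle genes 9 were higher, led by thymidylate synthase, Tyms (1.33 ± 0.12), and 7 lower (11 without wild type replicate 1), led by the replication helicase subunit Mcm2 (-0.69 ± 0.10); at 2-fold only Tyms remained, whereas on gelatin 12 were lower and none higher. The joint fit placed 28 of the 35 higher with HEK293 cells than on gelatin.

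Genes that distinguish kinds of vessel went both ways. Of 18 arterial genes 5 were higher and 7 lower, of 12 venous genes 5 and 3, and of 8 lymphatic genes 4 and 2. The shares over all genes were 18% higher and 22.9% lower. The lymphatic genes Lyve1 and Flt4 were higher, while Foxc2 and Pdpn were lower, by -0.65 ± 0.11 and -0.60 ± 0.14. The arterial Sema3g (-0.96 ± 0.11) and Unc5b (-0.63 ± 0.10) were lower and Fbln5 was higher (1.04 ± 0.09, with a second probe set at -0.14). The lymphatic regulator Prox1 (0.39 ± 0.11) and the venous regulator Nr2f2 (-0.38 ± 0.12) passed with all arrays only narrowly. Prox1 lost its call without Fz4-/- replicate 1 (0.31), Fz4-/- replicate 2 (0.38) or wild type replicate 3 (0.35), with adjusted p in limma of 0.09, 0.0639 and 0.0662. It was 0.02 over the mean of its probe sets (adjusted p = 0.877 in limma) and 0.19 with the deposited values (adjusted p = 0.199 in limma), so no direction is given for it. Nr2f2 lost it without any one array other than wild type replicate 1 (adjusted p in limma 0.0644 to 0.101), and was 0.82 over the mean of its probe sets, so none is given for it either. Of 12 tip cell genes 4 were higher and 3 lower. The urokinase receptor Plaur (2.92 ± 0.12), Adm (1.94 ± 0.15) and Apln (1.47 ± 0.11) were higher, which are genes of sprouting vessels, and the basement membrane gene Nid2 (-0.81 ± 0.14) was lower. Pdgfb, which recruits pericytes, passed with all arrays (-0.47 ± 0.13) but not without Fz4-/- replicate 3 or wild type replicate 2 or 3 (-0.43, -0.41 and -0.39, adjusted p in limma 0.0617, 0.0546 and 0.0566).

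Of 38 axon guidance genes, many of which also steer vessels, 9 were higher and 14 lower (16 without wild type replicate 1). Over all genes the shares were 18% and 22.9%. The semaphorin Sema3a was higher by 2.48 ± 0.16 and Sema3e, a ligand of plexin-D1, was lower by -1.19 ± 0.09. Slit2, the ligand of Robo receptors, was lower by -1.03 ± 0.09. Of 16 integrins 5 were higher and 4 lower (7 and 5 without wild type replicate 1). The largest rise was in Itga4, a chain of the VCAM-1 receptor (2.81 ± 0.09, with 3 further probe sets at 0.48 to 2.35), followed by the laminin receptor chains Itga6 (1.57 ± 0.10) and Itga3 (1.23 ± 0.09), and Itgb5 fell furthest (-1.55 ± 0.12). Of 18 matrix proteases and inhibitors 7 were higher and 7 lower, with Mmp2, the gelatinase A gene, lower by -2.38 ± 0.11 and Klk8 higher by 2.05 ± 0.18. The difference in Itga4 was 1.61 on gelatin and that in Mmp2 -1.62, both past the threshold in the same direction.

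Of 18 YAP/TAZ targets 4 were higher and 7 lower (9 without wild type replicate 1), beside 18% and 22.9% of all genes. Beside Ankrd1, Ccn1 was lower by -1.67 ± 0.12 while the related Ccn2 was higher by 1.37 ± 0.09. Of 22 cytoskeletal and SRF target genes 3 were higher and 9 lower, led by Tpm2 (-2.16 ± 0.14, but -0.25 and not past on the probe set with no cross-hybridization mark), Myl9 (-1.32 ± 0.09) and Fhl2 (-1.14 ± 0.12). Of 19 hypoxia and glycolysis genes 3 were higher and 10 lower, led by the enolase Eno2 (-2.45 ± 0.12). Of 19 p53 targets 2 were higher and 7 lower (9 without wild type replicate 1), with the death receptor Fas lower by -1.64 ± 0.12 beside Pmaip1, and Plk2 higher by 1.36 ± 0.10 (-0.45 on a second probe set). Of 21 unfolded protein and amino acid stress genes 7 were higher and 4 lower. The arginine transporter Slc7a3 (1.05 ± 0.16) led the rises, and Dnajb9, a chaperone partner, was lower by -0.70 ± 0.09. Of 33 Hox genes 5 were higher, led by Hoxa3 (1.20 ± 0.10, but -0.73 on a second probe set), and 3 lower, led by Hoxd8 and Hoxd9 (-1.14 ± 0.12). Both Hox shares lay below those over all genes.

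Of 14 genes of the Ifi200 family and the inflammatory caspases, 5 were higher and 6 lower, beside 18% and 22.9% of all genes. Ifi209 was higher by 2.99 ± 0.12, while its relatives Mndal (-1.22 ± 0.12) and Ifi207 (-1.09 ± 0.14) were lower. Among the caspases Casp1 was higher but Casp4, which senses cytosolic lipopolysaccharide, was lower by -2.35 ± 0.09, and Casp12 by -1.24 ± 0.21. Some members of the Ifi200 family are close relatives, so their probes may share signal.

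Markers of other cell types were also called; over all genes 18% were higher and 22.9% lower. Of 12 pericyte and smooth muscle markers none was higher and 6 were lower, with mean levels over the list of 3.58 to 3.60 in Fz4-/- and 4.0 to 4.07 in wild type. Of 10 fibroblast markers 1 was higher (Thy1) and 4 were lower, led by Dcn and Col1a2, at mean levels of 3.11 to 3.13 and 3.81 to 3.97. Of 12 macrophage and leukocyte markers 2 were higher and 1 lower, at 3.55 to 3.62 and 3.45 to 3.50. Of 9 glial markers 1 was higher and 2 lower, of 10 retinal neuron and pigment epithelium markers 1 and 4, and of 13 genes typical of HEK293 cells 1 and 4. The part of these markers in the falls of matrix and antigen processing genes was not tested. Of 40 genes next to Fzd4 on chromosome 7, with 20 on each side, 13 were higher and 7 lower, against 18% and 22.9% of all genes. The 2 largest differences among the 40 were in the adjacent Prss23 (2.60 ± 0.23, with 2 further probe sets at 0.44 and 2.37), a serine protease gene, and in Nox4 (2.23 ± 0.26), an oxidase gene. Xist, the transcript of the inactive X chromosome, was higher by 0.59 ± 0.11, and the Y-linked Eif2s3y was lower by -0.72 ± 0.14; Kdm5d (-0.06) and Uty (-0.26) did not pass, and without wild type replicate 1 Uty was lower by -0.31 (adjusted p = 0.0487 in limma).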

How the data were processed

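Total RNA was measured on single-colour Affymetrix mouse arrays. Intensities were deposited on a log2 scale, 1 per probe set. RMA is named, with no version, in the submitters' processing notes; which arrays it took together is not given in the sources used here. Of 45101 probe sets, the gene tests left out 64 controls, 932 that list several symbols and 9160 that list none, and 34945 were kept; RefSeq (GRCm38.p6) held 34741 by gene ID. The 6 arrays were quantile normalized, and each gene was read on the probe set with the highest mean over them. The fit used limma 3.58.1 (R 4.3.3) with 4 residual degrees of freedom. Gelatin, Matrigel and the Norrin co-culture were normalized and fitted apart on the same probe sets, and control co-culture and gelatin jointly for the test between cultures. Named probe sets with suffixes _s_at, _x_at or _a_at can cross-hybridize; no cross-hybridization mark means none of these.

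The members, the 38 gene lists (691 genes, 648 measured), the comparisons and the naming rule were chosen with earlier results of these data known. Named were Fzd4, Ndp, SoxF, Axin2, Lef1, Ccn4, Cldn5, Plvap, Cdh5, Pecam1 and Kdr, the 12 largest rises and falls without overlap, the 8 largest each way in 3 cultures, 8 reversals, up to 4 members of each list per direction, and sex-linked genes. Slfn2, Slfn3, Slfn8, Slfn9, Gbp3, Gbp6, Gbp7, Gbp8, H2-DMa, H2-DMb2, H2-Eb2, H2-Oa, H2-Ob, Ciita, Tap2, Vwf, Ifi202b, Selp, Serpinb6b, Ctsk, Ddx60, Isg20, Prss23 and Nox4, and the genes of the promoter search, were named after their values were seen. The procedure was tested on simulated data. Plots were drawn with matplotlib 3.10.9. Equal replicate numbers did not pair the arrays, as their deviations correlated by -0.03, 0.07 and -0.06.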

Additional observations from a re-analysis of the deposited data

Results flagged for a closer look

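The genotype difference itself differed between the co-culture with control HEK293 cells and gelatin, at an adjusted p below 0.05 in the joint limma fit over 12 arrays, in 6080 genes. Of these, 12 are given here: the 8 largest reversals, and Ifi202b, Hoxd8, Sox17 and Cldn5. Values are the co-culture difference minus the gelatin difference (log2, Fz4-/- minus wild type). They were negative for Cryab (-8.41), Serping1 (-7.32), Cp (-5.45), Fos (-5.30), Htra1 (-4.08) and Pawr (-4.05). They were positive for Ifi202b (6.09), Mmp3 (4.63), Atg9b (4.13), Hoxd8 (3.87), Sox17 (3.30) and Cldn5 (2.57). The 6 genes with negative values were lower in Fz4-/- in co-culture and higher on gelatin, and Mmp3 and Atg9b the reverse. Ifi202b, Hoxd8 and Sox17 differed by -6.90, -6.33 and -4.81 on gelatin and by 0.06, -1.40 and -0.61 in co-culture, and Cldn5 by -0.84 and 1.52. Groups of 3 arrays were too small for the search for single outlying arrays.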

How the results depend on the processing

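The count of 7443 genes was 5820 to 8041 when 1 array was left out (2542 to 3636 higher, 3278 to 4405 lower), and 7142 with a replicate block, which gave 3073 on gelatin, 2952 on Matrigel and 6138 between cultures. With the deposited values 2117 genes were higher and 7092 lower, as the median gene shifted by -0.20. Among genes above the median level 4583 passed (2094 higher, 2489 lower), since fewer were tested, and 1054 with a 2-fold minimum (504 and 550). Leaving out 1 array gave 988 to 2405 genes on gelatin, 1006 to 2186 on Matrigel and 5090 to 6492 for the test between cultures. Of 2944 values of 177 named genes under 17 alternatives, 2860 kept direction and side of the threshold. Reversed were, with deposited values, Lef1 (0.00), Ifi202b (-0.14) and Isg20 (-0.02); with median centring, Serpinb6b (0.03); without marked probe sets, Fabp4 (-0.33) and Uty (0.17); on the probe set highest in single cultures, Xaf1 (6.42) and Uty (0.17); and over the mean of probe sets, Xaf1 (1.44), Nr2f2 (0.82) and Ddx60 (-0.25). Without 1 array Vwf ranged from -0.07 to 0.07, Kdm5d from -0.18 to 0.07 and Serpinb6b from -0.07 to 0.05. The cause was not tested. Levels near the floor limit low genes.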
